A study of Mus musculus with 22 samples.

Results

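The genes described here take up, activate and oxidize fatty acids in mitochondria and peroxisomes, together with the nuclear receptor gene Ppara and 3 of its targets outside oxidation. They were chosen by gene symbol, and all 42 were found among the 32858 genes of the count table, which covers the kidneys of 22 male C57Bl6/J mice aged 8 to 10 weeks. By their known place in the cell, 5 members serve uptake and activation, 17 act in mitochondria, 10 in peroxisomes, 5 in both organelles and 1 in the cytosol, and 4 are Ppara and its non-oxidation targets. Across these classes, 11 members were listed as PPARA targets from textbook knowledge. This listing was made with earlier results of these data known and may leave out other targets. The vehicle group held 5 mice, which received neither drug but the carrier of DMSO, cremophor and saline. The KW6002 group held 6 mice given KW6002 (istradefylline), an adenosine receptor antagonist, at 3 mg/kg each day from day -5 to day 7. The cisplatin group held 5 mice given 6 daily intraperitoneal injections of the platinum drug cisplatin at 3 mg/kg, starting on day 0. The co-treated group, called cisplatin plus KW6002, held 6 mice given both drugs on these schedules. Kidneys were collected 72 hours after the last cisplatin injection. The comparisons ask what cisplatin did to the RNA of these genes and what KW6002 did with and without cisplatin.

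Proximal tubule cells draw most of their energy from fatty acids, which enter through carriers such as CD36, are coupled to coenzyme A, and reach the mitochondrial matrix as carnitine esters through CPT1A and CPT2. Each turn of beta-oxidation then uses an acyl-CoA dehydrogenase, a hydratase, a hydroxyacyl-CoA dehydrogenase and a thiolase, and the electrons pass through ETF to the respiratory chain. Peroxisomes shorten very long, branched and dicarboxylic fatty acids with their own enzymes. PPARA is a receptor for fatty acids that switches on many of these genes, and it also raises Pdk4, which brakes glucose oxidation, Angptl4, a secreted inhibitor of lipoprotein lipase, and Plin2, a coat protein of lipid droplets.

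Expression is given in CPM, the count of a gene scaled to a common library size after TMM normalization, and each mouse gave 1 library of 26471762 to 40510754 counts. The filter on low counts kept 17131 genes and all 42 members, whose counts ran from 168 (Hacl1) to 185791 (Slc27a2) per library. A member was counted as changed at a Benjamini-Hochberg adjusted p below 0.05 in edgeR's quasi-likelihood test over all 17131 genes. All 10 proximal tubule markers on the list used here were detected. Their summed level lay between 18320 and 19585 CPM in vehicle-treated mice, between 2926 and 4586 CPM with cisplatin, and between 8075 and 11792 CPM in co-treated mice. In whole kidney RNA, fewer cells of a type and less RNA per cell cannot be told apart. The summed level of 8 adipocyte markers varied widely within groups. It ran from 248 to 2153 CPM with vehicle, from 112 to 990 CPM with KW6002, from 476 to 949 CPM with cisplatin and from 45.4 to 583 CPM in the co-treated mice, with none of the 8 genes at 0 throughout a group. The sample labels number 3 vehicle and 3 KW6002 mice in the 300s and the other 16 mice in the 500s.

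**Figure D1:**
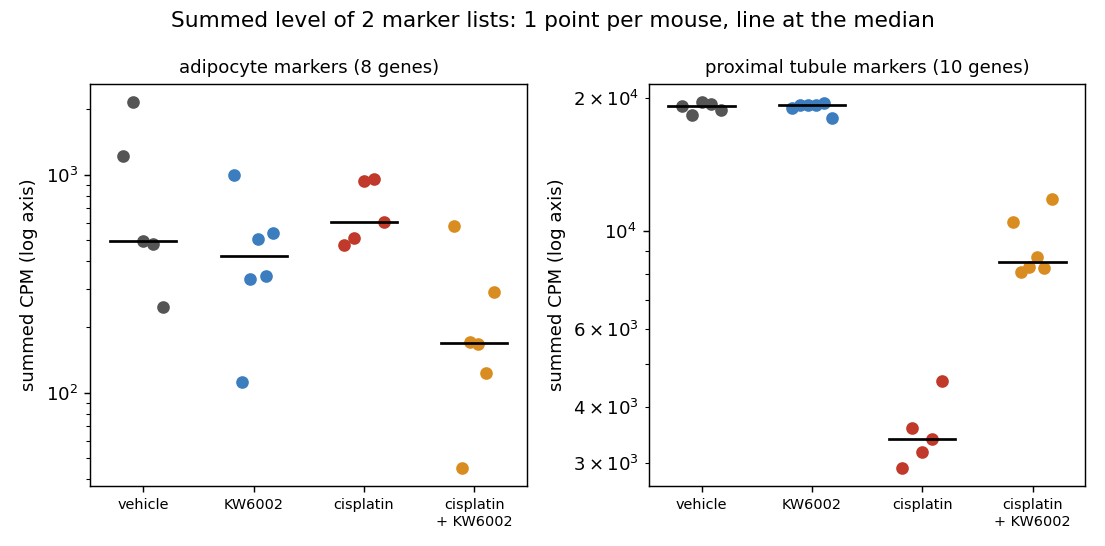
Summed CPM (log axis) of 8 adipocyte markers, left, and 10 proximal tubule markers, right, with 1 point per mouse and a line at the group median. Adipocyte medians were 496, 425, 607 and 169 CPM and proximal tubule medians 19182, 19269, 3394 and 8536 CPM in vehicle, KW6002, cisplatin and co-treated mice.

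Per kilobase of exon, the most abundant member in vehicle-treated kidneys was Slc27a2, which encodes the very long chain acyl-CoA synthetase FATP2, at 1238 ± 128 CPM per kb (SD, n = 5). Phyh, the first enzyme of alpha-oxidation, and Ehhadh, the peroxisomal bifunctional enzyme, followed at 343 ± 11.6 and 332 ± 28.8 CPM per kb and overlapped within their SDs. The least abundant was Hacl1, an alpha-oxidation lyase, at 1.70 ± 0.300 CPM per kb. Between mice of a group the median coefficient of variation of the members was 9.26% with vehicle, 7.71% with KW6002, 8.89% with cisplatin and 12.9% in the co-treated group. Acads was the steadiest member of the vehicle group, with a coefficient of 2.01%, and Pdk4 the most variable, with 30.6%.

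Cisplatin split the list. Compared with vehicle, 13 of the 42 members rose and 21 fell, and 8 did not pass the test. Over all genes tested, 34.6% rose and 35.9% fell, or 70.5% in either direction. In 30 of the 42 members the cisplatin and vehicle mice did not overlap, 12 higher and 18 lower. Over all genes tested, 27.4% were higher and 27.9% lower without overlap, together 55.3%. All 4 members of the PPARA class rose, 11 of 17 mitochondrial members fell, and peroxisomal members went both ways, with 4 higher and 5 lower.

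**Figure D2:**
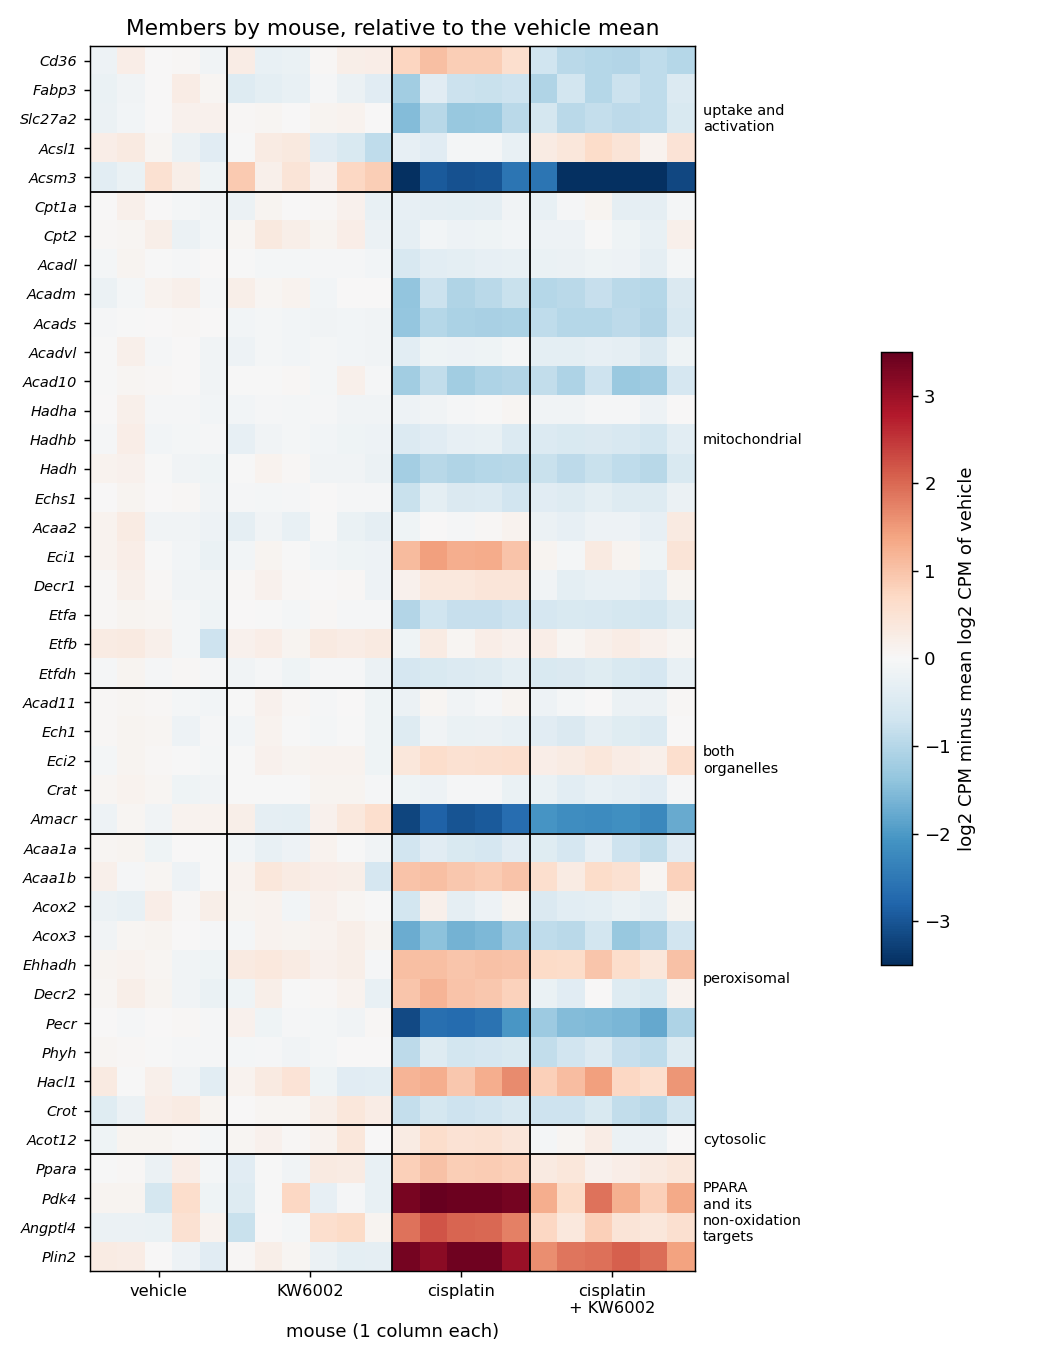
Heat map of the 42 members (rows, grouped by class) in 22 mice (columns, grouped by treatment), as log2 CPM minus the mean log2 CPM of the vehicle group. The scale ends at 3.5 in either direction, so values beyond it, such as the lowest of Acsm3, are drawn in its end colour. Pdk4 and Plin2 stand out as high with cisplatin and Acsm3, Amacr and Pecr as low.

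Ppara itself was expressed at 98.0, 101, 85.8, 115 and 94.3 CPM in the 5 vehicle mice and at 177, 200, 179, 182 and 175 CPM in the 5 cisplatin mice. Every cisplatin mouse lay above every vehicle mouse. The log2 fold change was 0.89 (SE 0.11, adjusted p = 1.24e-07, edgeR), a 1.85-fold rise.

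Pdk4, which encodes the kinase that inactivates pyruvate dehydrogenase, had the largest estimate of all members. It measured 67.1, 67.3, 41.0, 96.3 and 57.1 CPM with vehicle and 634, 722, 683, 686 and 649 CPM with cisplatin. The groups were far apart, and the fold change was 10.3 (log2 fold change 3.36, SE 0.24, adjusted p = 2.72e-11).

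Plin2 measured 135, 132, 112, 97.8 and 84.1 CPM with vehicle and 1127, 991, 1162, 1162 and 903 CPM with cisplatin. Its rise was 9.53-fold (log2 fold change 3.25, SE 0.15, adjusted p = 1.17e-14), again without overlap. Angptl4 measured 75.6, 76.2, 75.2, 126 and 95.2 CPM with vehicle and 326, 402, 363, 350 and 299 CPM with cisplatin, and it rose 3.88-fold (log2 fold change 1.96, SE 0.20, adjusted p = 8.57e-09). Both genes are also expressed in fat. Of the 8 adipocyte markers, 0 were higher and 2 were lower with cisplatin at an adjusted p below 0.05. Over all genes tested, 34.6% rose and 35.9% fell. The summed level of the 8 markers had a median of 496 CPM with vehicle and 607 CPM with cisplatin, and it varied widely between vehicle mice. With the mean of the 8 markers as a covariate, the log2 fold changes of Plin2 and Angptl4 were 3.26 and 1.96. In mice numbered in the 500s alone, they were 3.55 and 1.65. The part of fat in the rise of Plin2 and Angptl4 was not tested.

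**Figure D3:**
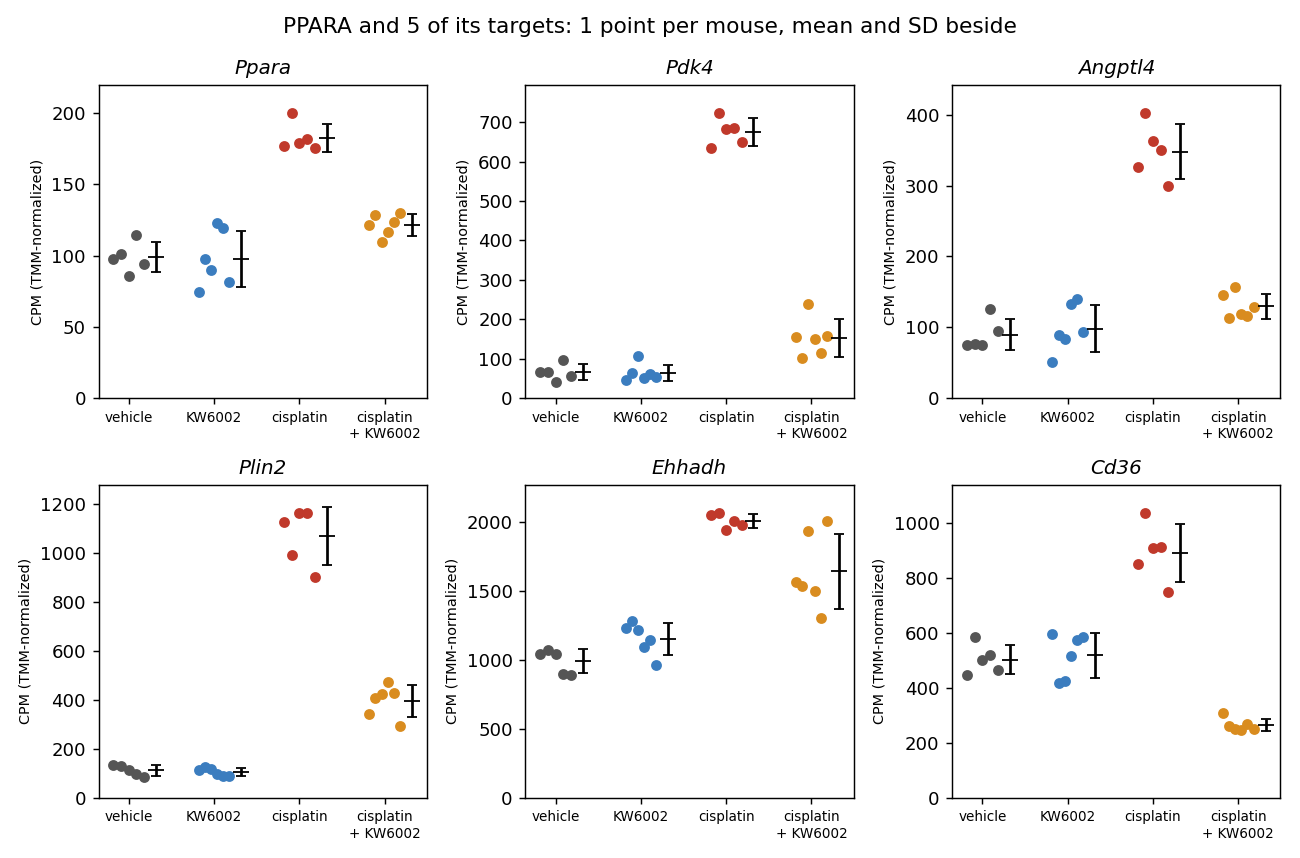
CPM (linear axis from 0) of Ppara and 5 of its targets by group, with 1 point per mouse and the mean and SD beside the points. Pdk4 and Plin2 reached at least 634 and 903 CPM in every cisplatin mouse, and Cd36 stayed at or below 308 CPM in every co-treated mouse.

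The PPARA protein binds DNA with a retinoid X receptor at 2 half-sites spaced by 1 base. The 250 bases before each RefSeq transcript start (build GRCm38.p6) were searched on both strands for AGGTCA, any base, AGGTCA, with up to 2 mismatches among the 12 fixed letters. The sequence table held 39 promoters for 37 of the 42 members, and no promoter was at hand for Acaa2, Amacr, Angptl4, Crat and Decr1. A match was found in 5 of the 39 (12.8%) and in 1063 of all 32851 promoters (3.24%), and the AGGTCA half-site, which overlaps the longer motif, in 20.5% and 14.0%. The matches lay before Plin2, Cd36, Acot12, Echs1 and Etfa. A match is a description of the letters and does not show binding. Those of Plin2 and Cd36, as PPARA targets, and of Acot12, as the closest match with 1 mismatch, are shown, 5′ to 3′ on the strand of the gene and with the match in capitals. They lie at chr4:86670060-86670309 on the minus strand for Plin2, chr5:17835897-17836146 on the minus strand for Cd36 and chr13:91741271-91741520 on the plus strand for Acot12. The start used for Cd36 lies inside the span that GENCODE M21 gives the gene. The first bases after the start were found in an M21 transcript of the gene for 30 of 37 members, and not for Cd36.
Plin2: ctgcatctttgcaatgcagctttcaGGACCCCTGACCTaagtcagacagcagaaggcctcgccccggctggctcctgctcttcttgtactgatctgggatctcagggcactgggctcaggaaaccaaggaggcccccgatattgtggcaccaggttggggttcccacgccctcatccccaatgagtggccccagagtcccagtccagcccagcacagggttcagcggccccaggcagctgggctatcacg
Cd36: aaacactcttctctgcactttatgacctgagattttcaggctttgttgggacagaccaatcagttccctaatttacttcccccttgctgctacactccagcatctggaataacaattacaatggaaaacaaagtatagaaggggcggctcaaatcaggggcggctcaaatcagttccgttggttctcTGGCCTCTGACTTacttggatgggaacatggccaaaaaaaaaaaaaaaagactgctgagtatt
Acot12: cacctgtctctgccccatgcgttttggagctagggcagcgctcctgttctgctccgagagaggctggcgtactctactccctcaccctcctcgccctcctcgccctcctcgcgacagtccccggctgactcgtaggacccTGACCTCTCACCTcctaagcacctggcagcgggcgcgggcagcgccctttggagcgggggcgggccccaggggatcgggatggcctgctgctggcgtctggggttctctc

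Of these 5 genes, Plin2, Cd36 and Acot12 rose with cisplatin, and Echs1 and Etfa fell.

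Acyl-CoA dehydrogenases start each turn of beta-oxidation at a given chain length. The 5 in the mitochondrial class (Acads, Acad10, Acadm, Acadl and Acadvl) were lower with cisplatin, and Acad11, placed in both organelles, did not pass (log2 fold change -0.04). Acads, the short chain enzyme, measured 263, 269, 272, 278 and 273 CPM with vehicle and 107, 136, 125, 122 and 127 CPM with cisplatin. The vehicle mice lay within a narrow band, and the fall of 1.13 on the log2 scale (SE 0.07, adjusted p = 2.49e-12) was the largest among mitochondrial members. Acadm, the medium chain enzyme and a PPARA target, measured 662, 735, 842, 876 and 750 CPM with vehicle and 293, 460, 369, 403 and 446 CPM with cisplatin. No mouse overlapped, and Acadm fell by 0.97 on the log2 scale (SE 0.11, adjusted p = 6.12e-08). Acad10 fell by 1.08, Acadl by 0.37 and Acadvl by 0.18 on the same scale. The call on Acadvl was lost without vehicle replicate 2 or cisplatin replicate 1 (adjusted p = 0.0703 and 0.066), with the label series as a covariate (adjusted p = 0.0626) and in the mice numbered in the 500s (adjusted p = 0.217). With scaling by library size alone its estimate turned to 0.037.

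The later steps of the mitochondrial cycle were uneven. Hadh, the short chain hydroxyacyl-CoA dehydrogenase, fell by 1.04 on the log2 scale (SE 0.08, adjusted p = 1.07e-10), the hydratase gene Echs1 by 0.54 and the trifunctional protein subunit Hadhb by 0.38. Its partner subunit Hadha and the thiolase Acaa2 did not pass the test, with log2 fold changes of -0.07 and -0.01. With scaling by library size alone, Hadha passed as higher, at 0.15 (adjusted p = 0.0131). Of the electron transfer genes, Etfa fell by 0.81 and Etfdh by 0.48 on the log2 scale, and Etfb had a log2 fold change of 0.08 that did not pass. Etfb measured 32.9 CPM in vehicle replicate 5 and 52.0 to 66.85 CPM in the other vehicle mice, and it passed in the mice numbered in the 500s (log2 fold change 0.47, adjusted p = 0.00454).

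Cpt1a, the entry enzyme of the carnitine shuttle and a PPARA target, measured 776, 873, 773, 734 and 711 CPM with vehicle and 626, 616, 608, 623 and 712 CPM with cisplatin. The highest cisplatin mouse just reached the range of the vehicle mice. Cpt1a fell by 0.28 on the log2 scale (SE 0.09, adjusted p = 0.00726), a fall that did not pass in the mice numbered in the 500s (adjusted p = 0.177) or with scaling by library size alone (adjusted p = 0.512). Cpt2, the second carnitine palmitoyltransferase, had a log2 fold change of -0.18 (adjusted p = 0.092).

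Enzymes that act on unsaturated fatty acids move or reduce double bonds. Of the 6 listed here, Eci1, Decr2, Eci2 and Decr1 rose, and Pecr and Ech1 fell. Eci1, the mitochondrial enoyl-CoA isomerase, measured 80.1, 86.6, 72.8, 69.8 and 63.0 CPM with vehicle and 159, 199, 180, 180 and 148 CPM with cisplatin. This rise of 2.33-fold (log2 fold change 1.22, SE 0.10, adjusted p = 4.35e-10) was the largest among mitochondrial members, of which Decr1, with a log2 fold change of 0.35, was the other that rose. Decr2, the peroxisomal dienoyl-CoA reductase, measured 77.3, 84.6, 78.6, 67.8 and 63.1 CPM with vehicle and 144, 169, 146, 143 and 129 CPM with cisplatin, without overlap and with a log2 fold change of 0.98 (SE 0.12, adjusted p = 1.01e-07). Eci2, an isomerase found in both organelles, measured 120, 136, 130, 126 and 121 CPM with vehicle and 166, 194, 184, 188 and 192 CPM with cisplatin, a 1.46-fold rise (adjusted p = 3.47e-07).

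Pecr, the peroxisomal trans-2-enoyl-CoA reductase, went the other way. It measured 381, 367, 381, 391 and 365 CPM with vehicle and 42.04, 60.9, 57.7, 62.7 and 91.1 CPM with cisplatin. The fall was 5.99-fold (log2 fold change -2.58, SE 0.15, adjusted p = 4.73e-13), the largest among peroxisomal members.

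Among the peroxisomal beta-oxidation enzymes, Ehhadh measured 1045, 1069, 1039, 899 and 893 CPM with vehicle and 2048, 2062, 1939, 2007 and 1978 CPM with cisplatin. The cisplatin mice varied little around a level 2.03 times that of vehicle (log2 fold change 1.02, SE 0.10, adjusted p = 4.07e-09). The thiolase pair split, with Acaa1b higher by 0.98 and Acaa1a lower at -0.51 on the log2 scale. These paralogs are near-identical and only uniquely aligned reads were counted, so the division of reads between them is uncertain. Acox3, an oxidase of branched acyl-CoAs, fell by 1.53 on the log2 scale (SE 0.11, adjusted p = 1.75e-11), and Acox2, an oxidase of bile acid intermediates, had a log2 fold change of -0.17 that did not pass.

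The alpha-oxidation enzymes also split. Hacl1 measured 10.3, 8.26, 9.31, 7.68 and 6.44 CPM with vehicle and 18.8, 19.9, 15.9, 20.1 and 25.9 CPM with cisplatin, a 2.40-fold rise without overlap (log2 fold change 1.26, SE 0.19, adjusted p = 4.33e-06). An annotated gene overlaps its exons on the same strand, and its counts were the lowest of all members. Phyh fell by 0.61 and the carnitine octanoyltransferase gene Crot by 0.71 on the log2 scale. Amacr, the racemase that prepares branched fatty acids and bile acid intermediates for oxidation, measured 234, 278, 247, 289 and 293 CPM with vehicle and 29.1, 37.8, 32.8, 35.1 and 42.3 CPM with cisplatin. Its fall of 7.58-fold (log2 fold change -2.92, SE 0.15, adjusted p = 1.23e-13) exceeded that of every peroxisomal member.

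At the plasma membrane and in activation, Cd36, the fatty acid translocase, rose and 3 members fell. Cd36 measured 446, 584, 501, 519 and 463 CPM with vehicle and 849, 1035, 908, 912 and 747 CPM with cisplatin, a 1.77-fold rise without overlap (log2 fold change 0.83, SE 0.11, adjusted p = 2.92e-07). Acsm3, a medium chain acyl-CoA synthetase, measured 457, 502, 850, 674 and 527 CPM with vehicle and 44.0, 76.2, 70.8, 72.1 and 99.1 CPM with cisplatin. Its fall of 8.31-fold had the largest estimate among members that fell (log2 fold change -3.05, SE 0.28, adjusted p = 1.87e-09). Exons of Acsm3 overlap Eri2 on the other strand, and whether strand was used in counting is not stated. Slc27a2 fell by 1.20 on the log2 scale, from 4646 ± 482 CPM with vehicle to 2017 ± 339.5 CPM with cisplatin, and Fabp3, a cytosolic fatty acid binding protein, fell by 0.76.

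Acsl1, the main long chain acyl-CoA synthetase, measured 525.4, 555, 469, 387 and 344 CPM with vehicle and 367, 338, 424, 424 and 375 CPM with cisplatin. The groups overlapped, and the log2 fold change of -0.24 did not pass (SE 0.18, adjusted p = 0.235). The cytosolic acetyl-CoA thioesterase gene Acot12 measured 214, 255, 253, 246 and 229 CPM with vehicle and 293, 368, 338.9, 343 and 318 CPM with cisplatin, a 1.39-fold rise without overlap (adjusted p = 4.36e-05). Among the remaining members, Ech1 fell by 0.24, and Crat and Acad11 did not pass, with log2 fold changes of -0.13 and -0.04. Acad11 passed as higher at 0.18 with scaling by library size alone (adjusted p = 0.0129). The fall of Ech1 did not pass in the mice numbered in the 500s (adjusted p = 0.291).

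**Figure D4:**
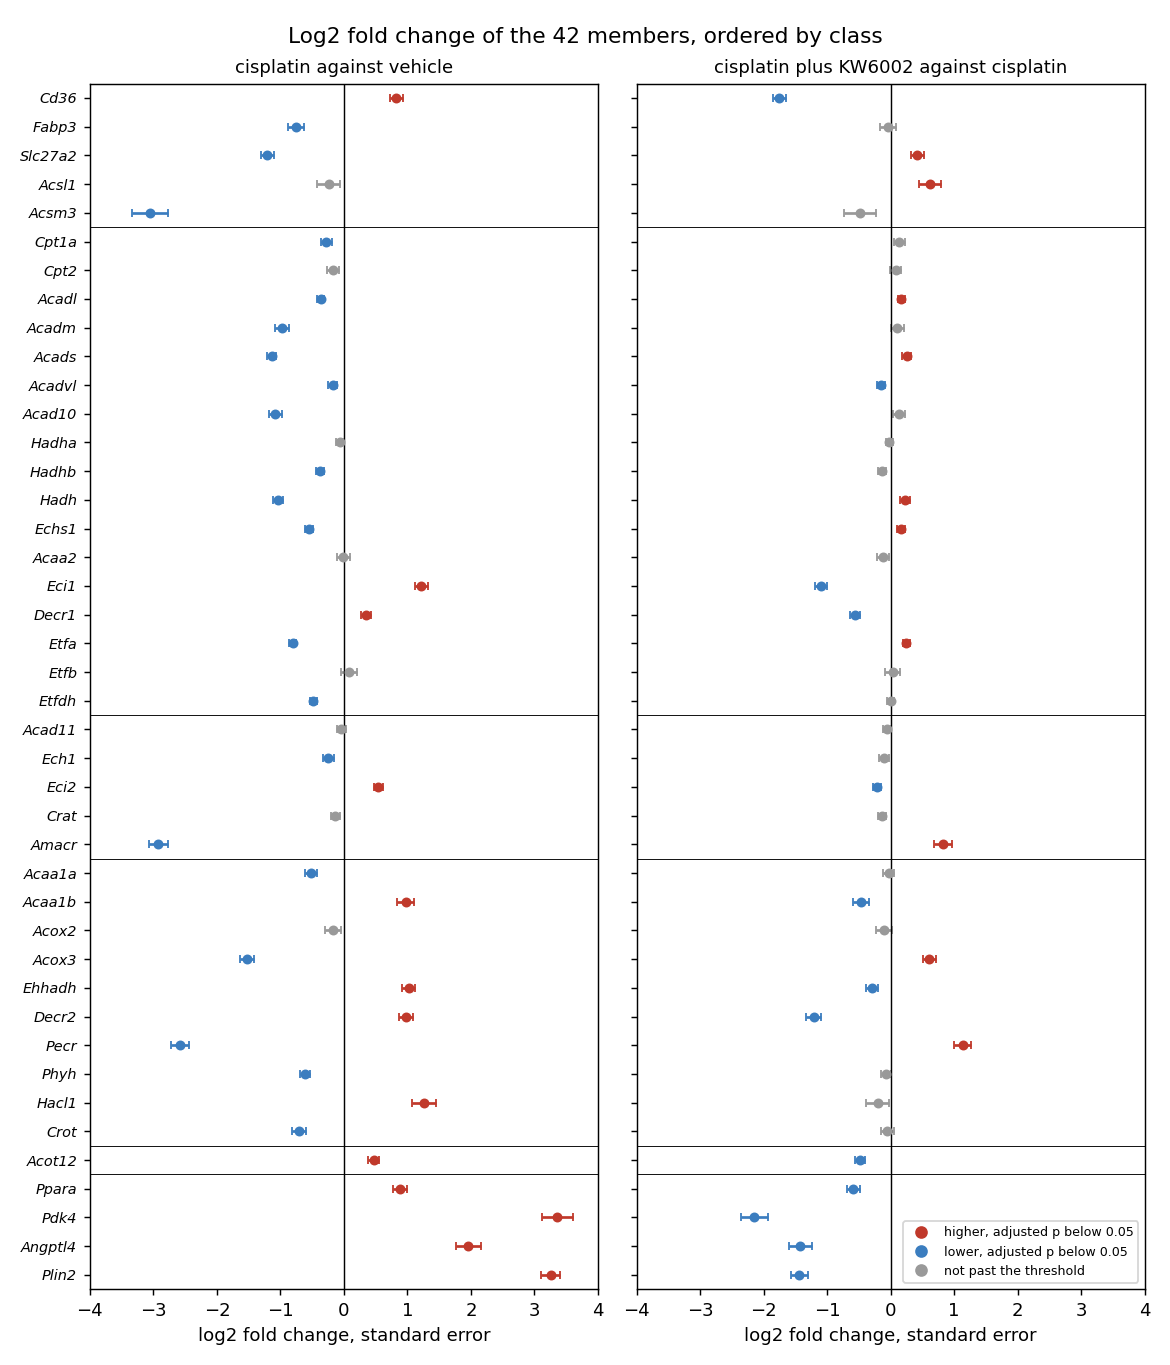
Log2 fold change with its standard error for each of the 42 members, ordered by class, for cisplatin against vehicle (left) and cisplatin plus KW6002 against cisplatin (right). Red points are higher and blue points lower at an adjusted p below 0.05. Estimates on the left run from -3.05 (Acsm3) to 3.36 (Pdk4) and on the right from -2.15 (Pdk4) to 1.13 (Pecr).

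Adding KW6002 to cisplatin lowered the PPARA class, while mitochondrial members gave estimates from -1.09 (Eci1) to 0.25 (Acads). Compared with cisplatin alone, 10 of the 42 members were higher in co-treated mice, 13 were lower and 19 did not pass the test. Of all genes tested, 28.6% were higher and 27.2% lower, together 55.8%. The groups did not overlap in 15 members, 5 higher and 10 lower, and in 37.8% of all genes, 19.3% higher and 18.5% lower. All 4 members of the PPARA class fell. Of 17 mitochondrial members, 5 rose, 3 fell and 9 did not pass, and of 10 peroxisomal members, 2 rose, 3 fell and 5 did not pass. This comparison shares its cisplatin mice with the preceding one, so the values of the 2 comparisons stand side by side and are not independent.

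In the 6 co-treated mice, Pdk4 ran from 101 to 238 CPM with a median of 152 CPM. No co-treated mouse reached the lowest cisplatin mouse at 634 CPM, and the log2 fold change was -2.15 (SE 0.22, adjusted p = 2.52e-08). Plin2 ran from 293 to 474 CPM with a median of 416 CPM, and it fell by 1.44 on the log2 scale (SE 0.13, adjusted p = 5.50e-09). Angptl4 ran from 114 to 157 CPM with a median of 124 CPM, and it fell by 1.423 (SE 0.18, adjusted p = 9.32e-07). Ppara ran from 109 to 130 CPM with a median of 123 CPM, and it fell by 0.59 (SE 0.10, adjusted p = 3.54e-05). In none of these 4 genes did the co-treated and cisplatin mice overlap.

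Cd36 ran from 248 to 308 CPM in the co-treated mice with a median of 256 CPM, below every mouse of the other 3 groups. It fell by 1.75 on the log2 scale against cisplatin (SE 0.10, adjusted p = 6.89e-12) and by 0.93 against vehicle (SE 0.10, adjusted p = 5.29e-08). Cd36 is also expressed in adipocytes, macrophages and microvascular endothelium. Of the 8 adipocyte markers, 5 were lower in co-treated than in cisplatin mice and 0 were higher. Over all genes tested, 27.2% were lower and 28.6% higher in this comparison. With the adipocyte mean as a covariate, the Cd36 log2 fold change against cisplatin was -1.61 (adjusted p = 5.35e-10) and that against vehicle -0.77 (adjusted p = 7.26e-06). Under the same covariate the log2 fold changes of Pdk4, Plin2, Angptl4 and Ppara against cisplatin were -2.10, -1.41, -1.48 and -0.63, each with an adjusted p below the threshold. Of the 4 macrophage markers, 1 was lower and 1 higher in co-treated than in cisplatin mice, and of the 4 endothelial markers, 2 were lower, the summed endothelial level running from 253 to 331 CPM with cisplatin and from 254 to 277 CPM in co-treated mice. The summed macrophage level ran from 149 to 196 CPM with cisplatin and from 79.2 to 145 CPM in co-treated mice. The part of adipocytes, macrophages and endothelium in the Cd36 result was not tested. Nor was the part of adipocytes in the falls of Pdk4, Plin2, Angptl4 and Ppara.

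Acsl1 went the other way from Cd36. It ran from 487 to 701 CPM in co-treated mice with a median of 599 CPM, above every cisplatin mouse, and rose by a log2 fold change of 0.62 (SE 0.17, adjusted p = 0.00416). Slc27a2 rose by 0.42 on the log2 scale (adjusted p = 0.00104), and Fabp3 did not pass at -0.05. Acsm3 ran from 32.9 to 98.8 CPM with a median of 39.7 CPM, overlapping the cisplatin mice, and its log2 fold change of -0.48 did not pass (SE 0.25, adjusted p = 0.111). It passed when co-treated replicate 1, the highest of the group, was left out (log2 fold change -0.77, adjusted p = 0.00481), or when cisplatin replicate 1 was left out (-0.62, adjusted p = 0.048).

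Of the acyl-CoA dehydrogenases, 2 rose, 1 fell and 2 did not pass, with no estimate beyond 0.25 on the log2 scale. Acads ran from 134 to 184 CPM in co-treated mice with a median of 140 CPM, overlapping the cisplatin mice, and rose by a log2 fold change of 0.25 (SE 0.07, adjusted p = 0.00325). Acadm ran from 383 to 546 CPM with a median of 397 CPM and did not pass (log2 fold change 0.11, SE 0.11, adjusted p = 0.411), nor did Cpt1a, which ran from 616 to 823 CPM with a median of 692 CPM (log2 fold change 0.13, SE 0.08, adjusted p = 0.183). Etfa, Hadh, Acadl and Echs1 rose by 0.24, 0.23, 0.17 and 0.16 on the log2 scale. Leaving out cisplatin replicate 1 or co-treated replicate 6 ended the calls on Hadh (adjusted p = 0.0521 and 0.0538) and Echs1 (0.11 and 0.0905), and leaving out cisplatin replicate 5 ended that on Echs1 (0.0773). Acadvl fell by 0.15 at an adjusted p of 0.0437, a call that was lost in 14 of 22 fits that left out 1 mouse. It was kept only without vehicle replicates 2 or 5, KW6002 replicates 1, 2, 5 or 6, cisplatin replicate 1 or co-treated replicate 6.

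Eci1 and Decr2 were lower in every co-treated mouse than in any cisplatin mouse. Eci1 ran from 67.0 to 100.3 CPM in co-treated mice with a median of 79.0 CPM (log2 fold change -1.09, SE 0.10, adjusted p = 4.17e-09). Decr2 ran from 50.7 to 79.9 CPM with a median of 59.3 CPM (log2 fold change -1.21, SE 0.11, adjusted p = 5.32e-09). Against vehicle, Eci1 and Decr2 did not pass in co-treated mice, with log2 fold changes of 0.13 (adjusted p = 0.28) and -0.24 (adjusted p = 0.0701). Decr2 passed as lower without vehicle replicate 5, co-treated replicate 3 or co-treated replicate 6 (adjusted p = 0.0357, 0.0297 and 0.0129), and Eci1 passed as higher with scaling by library size alone (0.28, adjusted p = 0.0136). Decr1 fell by 0.56 and Eci2 by 0.22 on the log2 scale, the latter from a range of 166 to 194 CPM with cisplatin to a range of 142 to 190 CPM and a median of 153 CPM (SE 0.07, adjusted p = 0.00837). Acot12 ran from 207 to 288 CPM with a median of 235 CPM, below every cisplatin mouse, and fell by 0.48 (SE 0.08, adjusted p = 3.31e-05).

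Of the peroxisomal members that cisplatin had raised, Ehhadh ran from 1303 to 2007 CPM in co-treated mice with a median of 1549 CPM. Its fall of 0.29 on the log2 scale against cisplatin (SE 0.09, adjusted p = 0.0114) did not pass with the adipocyte mean as a covariate (adjusted p = 0.0906), and the groups overlapped. Acaa1b fell by 0.47 (adjusted p = 0.00361), and Hacl1, between 12.5 and 24.1 CPM with a median of 16.2 CPM, had a log2 fold change of -0.20 (SE 0.18, adjusted p = 0.343). Pecr ran from 108 to 179 CPM with a median of 130 CPM, above every cisplatin mouse (log2 fold change 1.13, SE 0.14, adjusted p = 3.55e-07). Amacr ran from 55.9 to 78.3 CPM with a median of 59.7 CPM, likewise without overlap (log2 fold change 0.82, SE 0.14, adjusted p = 3.58e-05). Acox3 rose by 0.61 on the log2 scale (adjusted p = 2.77e-05), while Phyh, Crot and Acaa1a did not pass, with log2 fold changes of -0.07, -0.05 and -0.03.

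Set against vehicle, the co-treated kidneys still differed in most members. In this comparison 8 of the 42 were higher, 23 were lower and 11 did not pass, where 29.8% of all genes tested were higher and 29.9% lower, together 59.7%. In 25 members these groups did not overlap, 5 higher and 20 lower, against 37.5% of all genes, 18.9% higher and 18.5% lower. The 4 members of the PPARA class were still higher, with log2 fold changes of 1.82 for Plin2 (SE 0.14, adjusted p = 2.04e-10), 1.21 for Pdk4 (SE 0.22, adjusted p = 5.80e-05), 0.53 for Angptl4 (SE 0.19, adjusted p = 0.0173) and 0.30 for Ppara (SE 0.10, adjusted p = 0.0154). Only Plin2 and Pdk4 of these 4 separated the 2 groups without overlap. Angptl4 and Ppara did not pass when only mice numbered in the 500s were used (log2 fold changes 0.23 and 0.22, adjusted p = 0.238 and 0.147) or with the adipocyte mean as a covariate (adjusted p = 0.0847 and 0.0999), and Ppara did not pass without vehicle replicate 3 (adjusted p = 0.0503).

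The 5 acyl-CoA dehydrogenases of the mitochondrial class were lower than in vehicle-treated mice, without overlap in any of the 5. Acad10 was lower by a log2 fold change of -0.95, Acads by -0.88 (SE 0.07, adjusted p = 2.32e-10), Acadm by -0.86 (SE 0.11, adjusted p = 3.37e-07), Acadvl by -0.33 and Acadl by -0.20. With scaling by library size alone, Acadl did not pass (log2 fold change -0.041, adjusted p = 0.445). Of the 17 mitochondrial members, 0 were higher, 11 were lower and 6 did not pass. Etfb was higher in the mice numbered in the 500s (0.51, adjusted p = 0.00349). The call on Decr1, lower by a log2 fold change of -0.21, was lost in 7 of 22 fits that left out 1 mouse (vehicle replicates 1, 2 and 3 and co-treated replicates 2, 3, 4 and 5, adjusted p from 0.0519 to 0.101). It was also lost in the mice numbered in the 500s (adjusted p = 0.606), with the label series (0.302) or the adipocyte mean (0.324) as a covariate, and with scaling by library size alone (0.566). Acsm3 was the lowest relative to vehicle at a log2 fold change of -3.54 (SE 0.27, adjusted p = 2.39e-10), followed by Amacr at -2.10 (SE 0.14, adjusted p = 2.73e-11) and Pecr at -1.45 (SE 0.13, adjusted p = 4.66e-09). Hacl1, Ehhadh and Acaa1b were higher by log2 fold changes of 1.06, 0.73 and 0.51. Acsl1 had a log2 fold change of 0.38 (adjusted p = 0.0626), which reached 0.70 in the mice numbered in the 500s (adjusted p = 0.000481). It reached 0.80 with the label series as a covariate (adjusted p = 7.14e-06) and 0.53 with scaling by library size alone (adjusted p = 0.0108). Acsl1 also passed in the fit of only the groups compared (adjusted p = 0.0201) and without vehicle replicate 2, KW6002 replicate 3 or 6, or co-treated replicate 5.

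Without cisplatin, KW6002 changed none of the 42 members at an adjusted p below 0.05 in edgeR, and DESeq2 changed none either. At an unadjusted p below 0.05 edgeR counted 5 members, Hadhb, Fabp3, Ehhadh, Acaa2 and Acsm3. Over all genes, 0.0175% were higher and 0% lower at the adjusted threshold, and 11.3% passed unadjusted. In the 6 mice given KW6002 alone, Pdk4 ran from 46.8 to 106 CPM with a median of 57.0 CPM, Plin2 from 87.5 to 127 CPM with a median of 105 CPM and Angptl4 from 51.4 to 140 CPM with a median of 91.2 CPM. Each of these ranges overlapped that of vehicle-treated mice. Ppara ran from 74.8 to 123 CPM with a median of 93.8 CPM, Cd36 from 416 to 594 CPM with a median of 544 CPM and Acsl1 from 240.1 to 568.1 CPM with a median of 393 CPM. Ehhadh, from 959.6 to 1282 CPM with a median of 1179 CPM, had a log2 fold change of 0.22 (SE 0.09, adjusted p = 0.367), and Acsm3, from 655 to 1108 CPM with a median of 889 CPM, one of 0.54 (SE 0.25, adjusted p = 0.419). Of all genes, 1.38% did not overlap between KW6002 and vehicle mice, 0.391% higher and 0.992% lower. Acads was the sole such member, at 247 to 259 CPM with a median of 252 CPM, and its log2 fold change of -0.10 did not pass (SE 0.07, adjusted p = 0.584).

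The other members reported by mouse showed the same overlap with vehicle. With KW6002 alone, Acadm ran from 724 to 885 CPM with a median of 788 CPM, Cpt1a from 640.2 to 851 CPM with a median of 782 CPM and Eci1 from 65.5 to 79.5 CPM with a median of 69.3 CPM. Decr2 ran from 61.5 to 84.8 CPM with a median of 74.9 CPM, Eci2 from 115 to 141 CPM with a median of 137 CPM and Hacl1 from 6.26 to 11.6 CPM with a median of 8.19 CPM. Pecr ran from 338 to 417 CPM with a median of 361 CPM, Amacr from 210.1 to 403 CPM with a median of 302 CPM and Acot12 from 241 to 314 CPM with a median of 256 CPM. With standard errors from 0.05 to 0.25 on the log2 scale, small effects of KW6002 alone were not detectable.

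The effect of KW6002 with cisplatin was then tested against its effect without, as the difference between both log2 fold changes. In this test 9 members were higher, 13 were lower and 20 did not pass, where 22.8% of all genes were higher and 19.9% lower, together 42.7%. The 4 members of the PPARA class were lower, with differences of -2.10 for Pdk4 (SE 0.31, adjusted p = 1.02e-05), -1.55 for Angptl4 (SE 0.26, adjusted p = 5.74e-05), -1.34 for Plin2 (SE 0.19, adjusted p = 5.62e-06) and -0.57 for Ppara (SE 0.14, adjusted p = 0.00275). The difference was -1.80 for Cd36 (SE 0.14, adjusted p = 3.61e-09), -1.21 for Decr2 and -1.02 for Eci1. It was positive for Pecr at 1.16, Acsl1 at 0.78, Amacr at 0.68, Acox3 at 0.51 and Slc27a2 at 0.36 (adjusted p = 0.04). Among mitochondrial members 4 differences were positive (Acads, Hadh, Etfa and Acadl), 2 were negative (Eci1 and Decr1) and 11 did not pass. Those of Slc27a2 and Hadh were lost in 12 and 11 of 22 fits that left out 1 mouse, and that of Acsm3, at -1.03 (adjusted p = 0.0242), without cisplatin replicate 5 (adjusted p = 0.0524). Among mice numbered in the 500s, 4 members were higher and 12 lower. There Hadh, Etfa, Acadl, Slc27a2 and Acox3 lost their positive calls (adjusted p = 0.138, 0.236, 0.100, 0.053 and 0.0849). Acsm3, Eci2 and Acaa1b lost their negative calls (adjusted p = 0.0895, 0.103 and 0.0819). Etfb and Crat gained negative calls, at -0.61 and -0.32 (adjusted p = 0.0106 and 0.0332).

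By class, the median log2 fold change with cisplatin was -0.37 for the 17 mitochondrial members, -0.34 for the 10 peroxisomal members and 0.83 for the 11 PPARA targets, and over all genes tested it was -0.01. The mitochondrial and peroxisomal medians were close, but the spread was not: mitochondrial estimates ran from -1.13 to 1.22 and peroxisomal ones from -2.58 to 1.26. The PPARA targets ran from -1.20 (Slc27a2) to 3.36 (Pdk4), with 6 higher and 4 lower. Those that rose were Pdk4, Plin2, Angptl4, Ehhadh, Acaa1b and Cd36, and those that fell were Slc27a2, Acadm, Fabp3 and Cpt1a. In co-treated against cisplatin mice the medians were 0.08, -0.09 and -0.29, with 2 PPARA targets higher and 6 lower, and over all genes the median was 0.01. In co-treated against vehicle mice they were -0.33, -0.41 and 0.38, and with KW6002 alone -0.05, 0.03 and 0.04. These lists overlap in Cpt1a, Acadm, Ehhadh and Acaa1b. The PPARA target medians depend on which members were listed as targets.

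**Figure D5:**
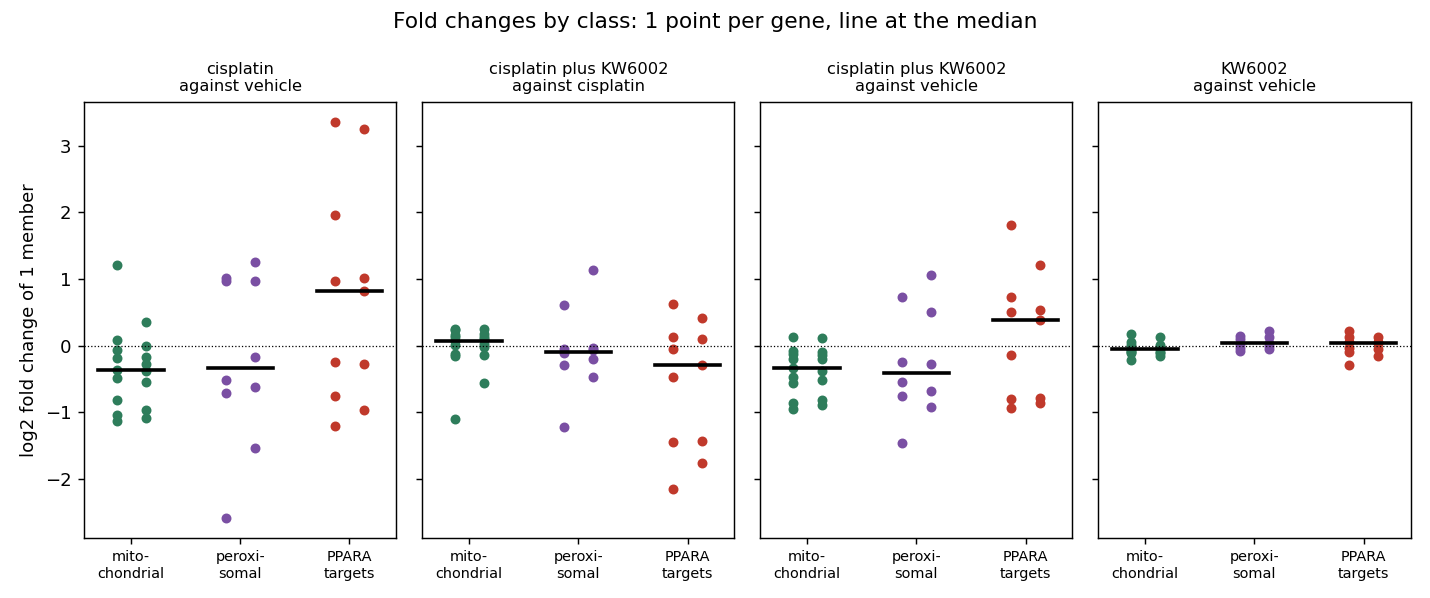
Log2 fold change of each mitochondrial member (17 genes), peroxisomal member (10 genes) and PPARA target (11 genes) in 4 comparisons, with 1 point per gene and a line at the class median. With cisplatin the medians were -0.37, -0.34 and 0.83, and 4 genes appear in both an organelle class and among the PPARA targets.

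Other genes of the pathway were taken from lists of known function, chosen with earlier results of these data known. Of 9 further PPARA targets tested, 7 rose with cisplatin and 0 fell, among them Hilpda, a hypoxia-inducible lipid droplet protein, at a log2 fold change of 2.61 and the fatty acid omega-hydroxylase Cyp4a14 at 2.36. Over all genes tested, 34.6% rose and 35.9% fell with cisplatin. In co-treated against cisplatin mice 6 of the 9 fell and 0 rose, where 27.2% of all genes were lower and 28.6% higher. Hilpda fell by 1.75 on the log2 scale, whereas Cyp4a14 averaged 3518 CPM with cisplatin and 3473 CPM in co-treated mice and did not pass (log2 fold change -0.02, adjusted p = 0.938). Among 7 PPAR regulators, Ppard was higher with cisplatin at 0.40, and the coactivator gene Ppargc1a and the nuclear receptor gene Esrra were lower at -0.93 and -0.97. In co-treated against cisplatin mice Ppargc1a and Esrra were higher by 0.51 and 0.63.

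Among 19 other genes tested that were listed under mitochondrial oxidation, 5 rose with cisplatin and 13 fell. For this and the following lists, the shares over all genes tested were 34.6% higher and 35.9% lower with cisplatin. Cpt1c, a brain-type member of the carnitine palmitoyltransferase family, rose most, from 2.15 to 37.0 CPM on average. Its part in mitochondrial oxidation was not tested. The thiolase Acat1 and the methylmalonyl-CoA mutase gene Mut fell by 2.11 and 1.93 on the log2 scale. Of 28 genes of peroxisomal oxidation and import, 8 rose and 13 fell. Pex11a, a factor of peroxisome division, rose by a log2 fold change of 1.37, and the oxidase genes Hao2 and Dao fell by 3.71 and 2.89. Hao2 and Dao were higher again in co-treated than in cisplatin mice, at log2 fold changes of 2.43 and 2.51. Of 15 other uptake and activation genes, 3 rose and 8 fell. Acsl4 was higher at 2.33 and Acsm2 lower at -5.91, from a mean of 5516 CPM with vehicle to 91.7 CPM with cisplatin and 1072 CPM in co-treated mice. Oxct1 and Bdh1, which use ketone bodies, fell by 3.17 and 2.61 on the log2 scale with cisplatin. Of 12 genes of lipid droplets and lipolysis, 7 rose and 3 fell with cisplatin, and 10 were lower and 0 higher in co-treated than in cisplatin mice, where 27.2% of all genes were lower. Fat cells express several of these genes, and in the same comparison 5 of 8 adipocyte and 3 of 3 brown adipocyte markers were lower. Their part in the counts of this list was not tested. The list included G0s2, an inhibitor of lipolysis, at 1.22 and then -1.23, and Plin4 at 1.31 and then -1.79, on the log2 scale.

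The thick ascending limb markers (4 genes) all fell with cisplatin. Of 5 distal and collecting duct markers, 4 fell and 1 rose, the latter by a log2 fold change of 1.41. Over all genes tested, 35.9% fell and 34.6% rose. Falls of tubule markers were thus not limited to the proximal tubule list. In co-treated against cisplatin mice 8 of 10 proximal tubule markers rose and 2 did not pass, where 28.6% of all genes tested were higher. Muscle markers, of which 4 of 5 stayed under 1 CPM in every mouse, summed to at most 3.34 CPM in any mouse, and brown adipocyte markers, 3 genes, to medians of 65.7 CPM with vehicle, 54.9 CPM with KW6002, 25.2 CPM with cisplatin and 6.07 CPM in co-treated mice. The part of tubule cell markers in the member results was not tested. Of the 42 members, 19 have exons that overlap another annotated gene, 4 of them on the same strand (Etfb, Acad11, Hacl1 and Crot), and their counts could include or lose reads of that gene.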

How the data were processed

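Kidney RNA of 22 mice was measured, 1 library per mouse. The authors prepared stranded poly(A) libraries, aligned single 50-base reads to mm10 with STAR, kept unique alignments and deposited raw counts per Ensembl gene from HTSeq 0.6.1p1 in union mode. Strand use in counting is not given in the sources used here. Another 66 unnamed columns of the table held no values. The members and gene lists were chosen with earlier results of these data known. Gene symbols were matched by Ensembl identifier, and positions and exon lengths came from GENCODE M21, on the same build.

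Counts were fitted with edgeR 4.0.16 in R 4.3.3 (TMM, filterByExpr with 10 counts in at least 5 libraries, 1 mean per group over all 22 libraries, quasi-likelihood test, Benjamini-Hochberg over 17131 genes). The filter removed 15727 genes, and 99.9% of counts stayed. A count of 0 would allow up to 3 counts, which no member approached. Values per mouse are given for 8 preselected members and for the largest change in each direction per class among those passing 0.05, in cisplatin against vehicle and co-treated against cisplatin. From other lists, at most the 2 largest changes per direction are named. Alternatives were DESeq2 1.42.0, other scalings and filters, covariates, subsets and each mouse left out. On simulated counts for cisplatin against vehicle, 200 of 200 changed genes and 5 others were called among 16489. The simulation gave every group the vehicle profile and changed few genes, all well expressed, by large folds. It therefore does not speak to small changes or to shifts as broad as those in the data. Promoters came from RefSeq (GRCm38.p6). The main fit did not treat replicate numbers as pairs. Correlations of same-numbered mice ran from -0.175 to 0.405 over 31 pairs. Between vehicle and KW6002 mice their median was 0.155, against -0.040 for other numbers. In this pair of groups, same-numbered mice also shared their label series. Other pairs of groups had same-number medians from -0.017 to 0.026. These values do not settle whether the numbers pair mice. Part of the ketone body list is not reported here.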

Additional observations from a re-analysis of the deposited data

Results flagged for a closer look

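Among 72 sets of values, the 18 members reported by mouse in 4 groups, 8 held a mouse far from the rest of its group. For a single set, chance would flag about 1 in 20. The sets come from the same mice and are not independent, so the count is not a test against that rate. Ppara measured 199.9 CPM in cisplatin replicate 2, with the nearest mouse at 182 CPM. Cpt1a measured 712 CPM in cisplatin replicate 5, with the nearest at 626 CPM. In the KW6002 group, Pdk4 measured 106 CPM in replicate 3 (nearest 63.1 CPM) and Acot12 measured 314 CPM in replicate 5 (nearest 263 CPM). In the co-treated group, Cd36 measured 308 CPM in replicate 1 (nearest 269.6 CPM). Co-treated replicate 6 was the high mouse for 3 genes, with Acadm at 546 CPM (nearest 438 CPM), Acads at 184 CPM (nearest 147 CPM) and Amacr at 78.3 CPM (nearest 63.8 CPM). That mouse also had the highest summed proximal tubule markers of its group, at 11792 CPM.

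The effect of KW6002 differed with and without cisplatin in 15 of these 18 members, by the test of the difference itself (edgeR, adjusted over all genes), which 42.7% of all genes passed. Some of the 18 were named for having the largest change in co-treated against cisplatin mice, so the count was favoured by their choice. The differences of Acsm3 and Eci2 did not pass in the mice numbered in the 500s (adjusted p = 0.0895 and 0.103). The log2 difference was negative for Pdk4 (-2.10), Cd36 (-1.80), Angptl4 (-1.55), Plin2 (-1.34), Decr2 (-1.21), Acsm3 (-1.03), Eci1 (-1.02), Acot12 (-0.62), Ppara (-0.57), Ehhadh (-0.51) and Eci2 (-0.28). It was positive for Pecr (1.16), Acsl1 (0.78), Amacr (0.68) and Acads (0.35). Adjusted p-values ran from 3.61e-09 for Cd36 to 0.0242 for Acsm3.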

How the results depend on the processing

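With cisplatin against vehicle, counting the 5 members of both organelles as mitochondrial or as peroxisomal gave class medians of -0.26 and -0.17 in place of -0.37 and -0.34. Scaling by library size alone moved the median of all genes to 0.20 with cisplatin and 0.16 in co-treated mice against vehicle. The mitochondrial, peroxisomal and PPARA target medians were then -0.15, -0.13 and 1.04 with cisplatin, and -0.17, -0.25 and 0.53 in co-treated mice. Acadvl with cisplatin turned to 0.037 (adjusted p = 0.59). For co-treated against vehicle mice, the PPARA target median of 0.38 was 0.17 with the label series as a covariate and 0.23 in mice numbered in the 500s. In the latter, 4 members in place of 9 had a higher difference between the KW6002 effects. The causes of the shifts under the label series were not tested.

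Leaving out 1 mouse gave 13 to 13 members higher and 20 to 23 lower with cisplatin, 8 to 10 and 12 to 17 in co-treated against cisplatin mice, 7 to 9 and 22 to 26 in co-treated against vehicle mice, and 0 either way with KW6002 alone. DESeq2 moved 1 member call over the 5 comparisons, that of Hadhb in co-treated against cisplatin mice (adjusted p = 0.0489). Replicate numbers were shared between groups, and 8 of 22 mice correlated best with a mouse of their own number. The number expected by chance was not computed. With the replicate block the calls were 13 higher and 21 lower with cisplatin, 10 and 14 in co-treated against cisplatin mice, and 9 and 24 in co-treated against vehicle mice. Hadhb gained a call in the second comparison, Acsl1 and Acox2 gained one in the third, and Hadh lost one in the difference.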
